A study of Homo sapiens with 6 samples.

Results

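The 39 genes described here are the protein-coding genes whose symbol begins with HNRNP (27 genes) or is SRSF followed by a number (12 genes), out of 60617 genes in the deposited count table. The rule uses symbol and gene type alone. Heterogeneous nuclear ribonucleoproteins (hnRNPs) coat newly made RNA in the nucleus, and many of them repress the use of splice sites near where they bind. SR proteins carry RNA recognition motifs and a tail rich in arginine and serine, and they usually promote the use of nearby exons. The balance between both families is a textbook determinant of alternative splicing, and several members also act in export, translation and decay of mRNA.

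RNA was sequenced from 2 groups of 3 libraries: A549 cells with a YTHDF1 knockout and wild-type A549 cells. A549 is an established human lung cancer line, and both groups were grown in the same medium without a further treatment named in the labels. YTHDF1 is a cytoplasmic protein that binds N6-methyladenosine in mRNA. The labels call the libraries biological replicates and do not say how the knockout was made or whether its cells are 1 clone, so the p-values measure the spread among these libraries, which may be smaller than that between separate lines.

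The knockout libraries held 32037107 to 40675628 counts and the wild-type libraries held 27238817 to 40460782 counts. YTHDF1 itself was at 48.6, 48.6 and 47.1 CPM (counts scaled to a common library size with TMM factors) in the knockout libraries, against 98.0, 103.8 and 96.4 CPM in the wild-type libraries. Log2 fold changes are knockout over wild type and carry their standard error (SE). That of YTHDF1 was -1.05 (SE 0.0526), and its p by the quasi-likelihood test of edgeR, Benjamini-Hochberg adjusted, was 7.84e-18. Among markers of the line, KRT8, KRT18 and ALDH1A1 were abundant in both groups while EPCAM averaged 1.94 CPM in knockout cells and 2.10 CPM in wild-type cells. Of the 11 markers of the line, 5 rose and 3 fell, where 27.2% of all genes tested were higher and 26.3% lower. CDH1, KRT19, AKR1C1, AKR1C2 and KRT8 rose by 1.76, 0.52, 0.40, 0.20 and 0.19 on the log2 scale. AKR1B10, NQO1 and ALDH1A1 had log2 fold changes of -1.06, -0.61 and -0.20. Immune markers summed to 3.05 to 4.09 CPM in the knockout libraries and 11.1 to 11.5 CPM in the wild-type libraries, nearly all of it CD14, which alone of 5 passed the filter on low counts; CD3E had 0 counts throughout. Fibroblast markers, 3 of 5 tested, summed to 43.7 to 47.0 CPM in the knockout libraries and 30.1 to 34.5 CPM in the wild-type libraries. Most of that sum was COL1A1, with means of 41.9 CPM in knockout cells and 29.8 CPM in wild-type cells. COL1A1 and LUM rose by 0.49 and 0.72 on the log2 scale, and PDGFRA had a log2 fold change of -1.06. Endothelial markers, 0 of 4 tested, summed to 0.343 to 0.464 CPM in the knockout libraries and 0.528 to 1.07 CPM in the wild-type libraries. The part of these lists in the results below was not tested. Mitochondrially encoded mRNAs took 3.72% to 3.98% of the counts in the knockout libraries and 5.76% to 5.92% in the wild-type libraries, and the part of that gap was not tested either. A fall in a bulk library cannot tell less RNA per cell from fewer cells that express the gene.

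Most hnRNP and SR protein genes were lower in the knockout cells. Of the 39 genes, 34 passed the filter on low counts, and of these 27 fell and 2 rose at an adjusted p threshold of 0.05, by the same edgeR test over all genes. Over all 18505 genes tested, 53.5% were called, 26.3% lower and 27.2% higher. The median log2 fold change was -0.27 over the 34 members, beside 0.00 over all genes tested, whose lower and upper quartiles were -0.34 and 0.38. For 30 members the groups lay apart, 28 lower and 2 higher. Of all genes tested the groups lay apart for 58.9%, 29.1% lower and 29.8% higher. The 5 genes that did not pass the filter were HNRNPCL1, HNRNPCL2, HNRNPCL3, HNRNPCL4 and the readthrough gene HNRNPUL2-BSCL2, each with 0 counts in every library, which at this depth allows up to 0.111 CPM in the shallowest library. This limit covers counting error only and does not allow for reads that could not be assigned to 1 gene. Of the exonic bases of HNRNPUL2-BSCL2, 100% are shared with BSCL2 and HNRNPUL2 on the same strand, so the limit does not bound its expression.

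**Figure D1:**
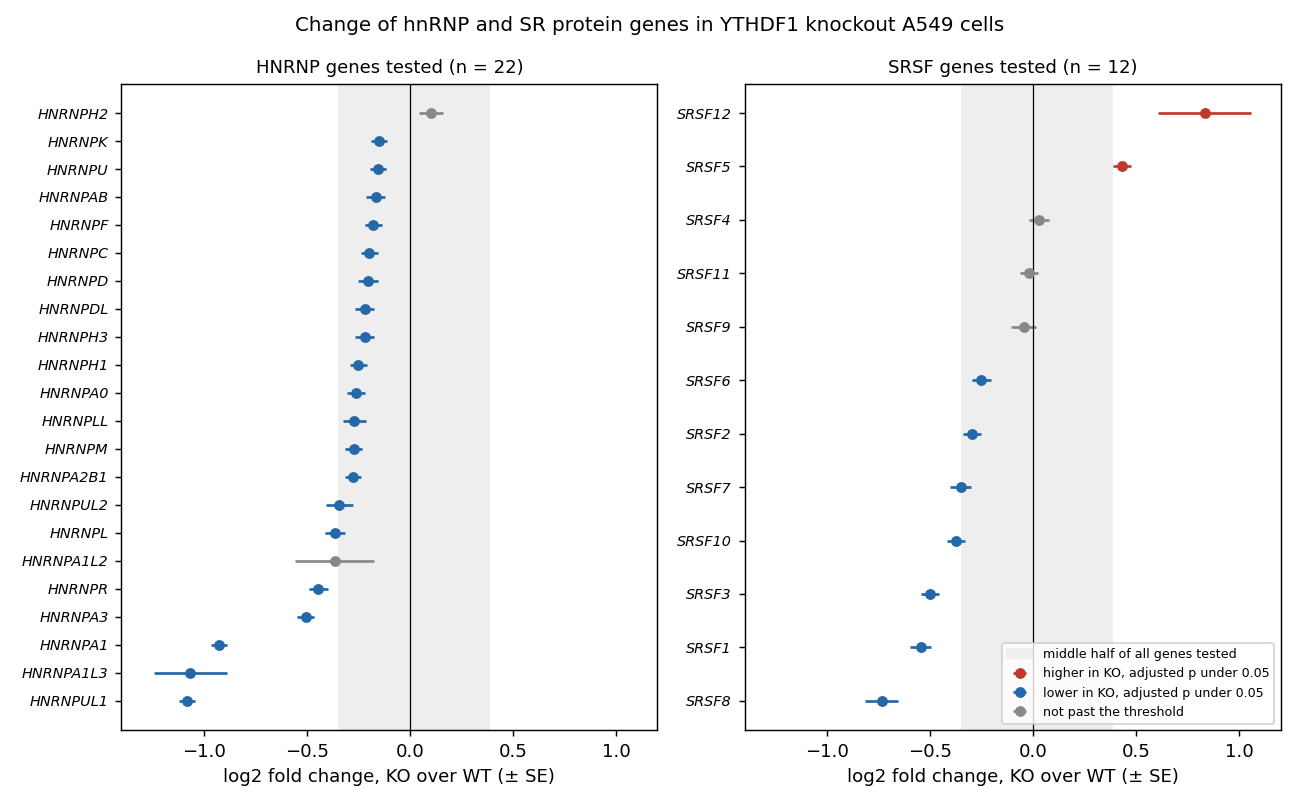
Log2 fold change, knockout over wild type, of the 22 HNRNP and 12 SRSF genes tested, with bars of 1 SE; the grey band runs between the quartiles of all genes tested. Nearly all points lie left of 0, with HNRNPUL1, HNRNPA1L3 and HNRNPA1 farthest left and SRSF12 and SRSF5 the points called higher.

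The promoters below show the sequence around the starts of the abundant gene with the largest fall (HNRNPUL1), a further A/B gene (HNRNPA3), the gene beside CBX3 (HNRNPA2B1) and the abundant gene that rose (SRSF5). Each runs 5′ to 3′ on the gene's strand from 250 bases before to 50 after its start, from RefSeq on GRCh38.p14, whose starts can differ from the outermost GENCODE start, and capitals mark a searched motif on either strand. HNRNPUL1 is chr19:41262307-41262606 on the plus strand and HNRNPA3 is chr2:177212544-177212843 on the plus strand. HNRNPA2B1 is chr7:26200697-26200996 on the minus strand and SRSF5 is chr14:69766892-69767191 on the plus strand.
HNRNPUL1: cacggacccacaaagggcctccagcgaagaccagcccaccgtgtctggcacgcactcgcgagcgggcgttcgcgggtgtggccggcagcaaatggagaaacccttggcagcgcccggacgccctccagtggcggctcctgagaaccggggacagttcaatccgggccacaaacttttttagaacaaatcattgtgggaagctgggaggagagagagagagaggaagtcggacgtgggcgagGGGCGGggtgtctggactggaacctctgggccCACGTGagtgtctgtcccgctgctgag
HNRNPA3: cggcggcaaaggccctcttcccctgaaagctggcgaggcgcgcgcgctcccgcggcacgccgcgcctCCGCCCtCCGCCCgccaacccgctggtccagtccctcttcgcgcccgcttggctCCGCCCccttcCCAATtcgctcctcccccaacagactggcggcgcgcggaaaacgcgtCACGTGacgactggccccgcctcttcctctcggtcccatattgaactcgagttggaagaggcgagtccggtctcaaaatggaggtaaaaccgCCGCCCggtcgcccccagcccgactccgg
HNRNPA2B1: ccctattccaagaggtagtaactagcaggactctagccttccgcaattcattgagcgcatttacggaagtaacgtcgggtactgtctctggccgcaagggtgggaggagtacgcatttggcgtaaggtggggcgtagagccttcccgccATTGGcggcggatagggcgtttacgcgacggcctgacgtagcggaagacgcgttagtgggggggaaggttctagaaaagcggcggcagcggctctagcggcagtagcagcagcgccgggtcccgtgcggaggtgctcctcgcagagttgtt
SRSF5: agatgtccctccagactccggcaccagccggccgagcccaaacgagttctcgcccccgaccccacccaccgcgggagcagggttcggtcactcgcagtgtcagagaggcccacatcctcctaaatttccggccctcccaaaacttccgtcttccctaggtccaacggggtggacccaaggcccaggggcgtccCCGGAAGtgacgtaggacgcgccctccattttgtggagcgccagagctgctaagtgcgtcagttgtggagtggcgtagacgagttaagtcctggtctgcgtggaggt

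HNRNPUL1 and HNRNPA3 each hold the E-box CACGTG, the letters bound by MYC and USF proteins, and HNRNPUL1 also holds the GC box GGGCGG. HNRNPA3 holds GC boxes read on the other strand (CCGCCC) and the CCAAT box CCAAT, and HNRNPA2B1 holds a CCAAT box read on the other strand. SRSF5 holds the ETS motif CCGGAAG. RefSeq promoters were matched for 31 of the 34 members tested, all but HNRNPA1, HNRNPA1L3 and SRSF2. The E-box was present in 7 of 31 (22.6%), against 9.1% of 16414 promoters of the protein-coding genes tested. The 7 were HNRNPA3, HNRNPD, HNRNPDL, HNRNPH2, HNRNPH3, HNRNPM and HNRNPUL1, of which all but HNRNPH2 fell. Of all 22 HNRNP genes tested, whether or not a promoter was matched, 20 fell. With so few that did not fall, these values cannot show whether the E-box goes with the fall, which was not tested. The CCAAT box was in 51.6% of member promoters and 34.2% of those of all protein-coding genes tested, and the GC box in 64.5% of the members' and 64.2% of all. The ETS motif was in 16.1% of member promoters and 15.6% of all, and the TATA box TATAAA in 12.9% of the members' and 6.54% of all. The E2F motif TTTCCCGC was in 6.45% of member promoters and 2.25% of all, and the interferon-response element in 6.45% of the members' and 3.05% of all. The YY1 motif AAGATGGC was in 0 of 31 member promoters and 4.39% of all, and the NRF1 palindrome in 0 of 31 and 1.79% of all. Each member was given 1 promoter, whereas the 16414 promoters include more than 1 of some genes. These shares and the GC medians below are therefore not fully like for like. Both strands were searched, each motif on its own so that matches may overlap, and a match describes letters only. Median GC content was 64.7% in member promoters and 64.3% in those of protein-coding genes tested.

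Among hnRNP genes the change was uneven. Of 22 tested, 20 fell, and HNRNPA1L2 and HNRNPH2 did not pass the threshold. HNRNPUL1, HNRNPA1L3 and HNRNPA1 had log2 fold changes between -1.08 and -0.93, while the 17 others that fell lay between -0.51 and -0.15. A fall of at least 1 on the log2 scale was reached by 2 members, HNRNPUL1 and HNRNPA1L3, against 4.44% of all genes tested, and no member rose by as much, which 7.95% of all genes did. The summed level of the hnRNP genes was 5767, 5685 and 5554 CPM in the knockout libraries, against 7248, 7537 and 7310 CPM in the wild-type libraries, which is 23.0% lower.

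HNRNPUL1 (ENSG00000105323; chromosome 19, 41262496 to 41307598, plus strand, GENCODE 29 on GRCh38) encodes a protein related to hnRNP U that is also known from the repair of DNA breaks. It was at 264.1, 262.6 and 253.4 CPM in the knockout libraries, against 546.2, 554.6 and 549.3 CPM in the wild-type libraries. Each group was tight and they lay far apart. The log2 fold change was -1.08 (SE 0.0400), with an adjusted p of 1.64e-21 in edgeR. Its paralog HNRNPUL2 had 30.6 ± 1.36 CPM in knockout cells and 38.8 ± 0.709 CPM in wild-type cells (SD, n = 3 each), a log2 fold change of -0.34 (SE 0.0667). In the annotation 44.1% of the exonic bases of HNRNPUL2 are shared with the readthrough gene, so its count may be incomplete. HNRNPU, a scaffold protein that binds RNA and chromatin, had a log2 fold change of -0.16 (SE 0.0372); COX20 overlaps 15.6% of its exonic bases on the opposite strand.

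HNRNPA1 (ENSG00000135486; chromosome 12, 54280193 to 54287088, plus strand) encodes a classical repressor of exon inclusion that shuttles between nucleus and cytoplasm. It was at 638, 634 and 596 CPM in the knockout libraries, against 1158, 1181 and 1212 CPM in the wild-type libraries, so every knockout library lay well below every wild-type library. HNRNPA1 had a log2 fold change of -0.93 (SE 0.0391), with an adjusted p of 6.52e-20 in edgeR. Its share of all hnRNP counts was 11.1%, 11.1% and 10.7% in the knockout libraries and 16.0%, 15.7% and 16.6% in the wild-type libraries. Per length it was the most abundant hnRNP mRNA in both groups, with 122 CPM per kilobase of exon in knockout cells and 232 in wild-type cells. The next gene, HNRNPK, had 110 CPM per kilobase in knockout cells and 122 in wild-type cells.

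HNRNPA1L3 and HNRNPA1L2 are near copies of HNRNPA1 with low counts, and reads could be divided among these genes by the counting, so their levels are uncertain. HNRNPA1L3 was at 2.54, 3.24 and 2.95 CPM in the knockout libraries, against 7.17, 4.64 and 6.39 CPM in the wild-type libraries, with a log2 fold change of -1.07 (SE 0.177) and an adjusted p of 4.81e-06 in edgeR. HNRNPA1L2 was at 2.88, 2.57 and 2.78 CPM in the knockout libraries, against 3.59, 3.53 and 3.47 CPM in the wild-type libraries. Its groups did not overlap, but its adjusted p in edgeR was 0.111.

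The other members of the A/B branch package RNA through paired recognition motifs. HNRNPA3 (ENSG00000170144) was at 282, 293 and 279 CPM in the knockout libraries, against 389, 416 and 408 CPM in the wild-type libraries, without overlap. Its log2 fold change was -0.51 (SE 0.0416), with an adjusted p of 2.59e-12 in edgeR. HNRNPA2B1, which binds RNA near N6-methyladenosine sites in published work, had 699 ± 8.11 CPM in knockout cells and 846 ± 40.7 CPM in wild-type cells (SD, n = 3 each), a log2 fold change of -0.28 (SE 0.0398). HNRNPA0 had a log2 fold change of -0.26, and HNRNPAB had one of -0.17. HNRNPD (AUF1), known for the decay of mRNAs with AU-rich elements, and its relative HNRNPDL had log2 fold changes of -0.20 and -0.22. HNRNPA0, HNRNPAB, HNRNPD and HNRNPDL were each past the threshold.

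HNRNPC, which binds runs of uridine, had 468 ± 21.1 CPM in knockout cells and 537 ± 16.4 CPM in wild-type cells (SD, n = 3 each), a log2 fold change of -0.20 (SE 0.0415). HNRNPK, which binds C-rich RNA through KH domains, had a log2 fold change of -0.15, the smallest fall among hnRNP members past the threshold. The H/F branch binds runs of guanine: HNRNPH1, HNRNPH3 and HNRNPF had log2 fold changes of -0.25, -0.22 and -0.18. HNRNPH2, the X-linked relative of HNRNPH1, was at 76.9, 69.5 and 70.0 CPM in the knockout libraries, against 62.2, 72.4 and 66.8 CPM in the wild-type libraries. These groups overlapped. Its log2 fold change was 0.10 (SE 0.0582), with an adjusted p of 0.134 in edgeR. The readthrough gene RPL36A-HNRNPH2 shares 16.3% of its exonic bases. Without wild-type replicate 2 its log2 fold change was 0.16, with an adjusted p of 0.0365 in edgeR, and over all replicates left out in turn that p ran up to 0.547. HNRNPR, HNRNPL, HNRNPM and HNRNPLL fell, with log2 fold changes of -0.44, -0.36, -0.27 and -0.27.

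**Figure D2:**
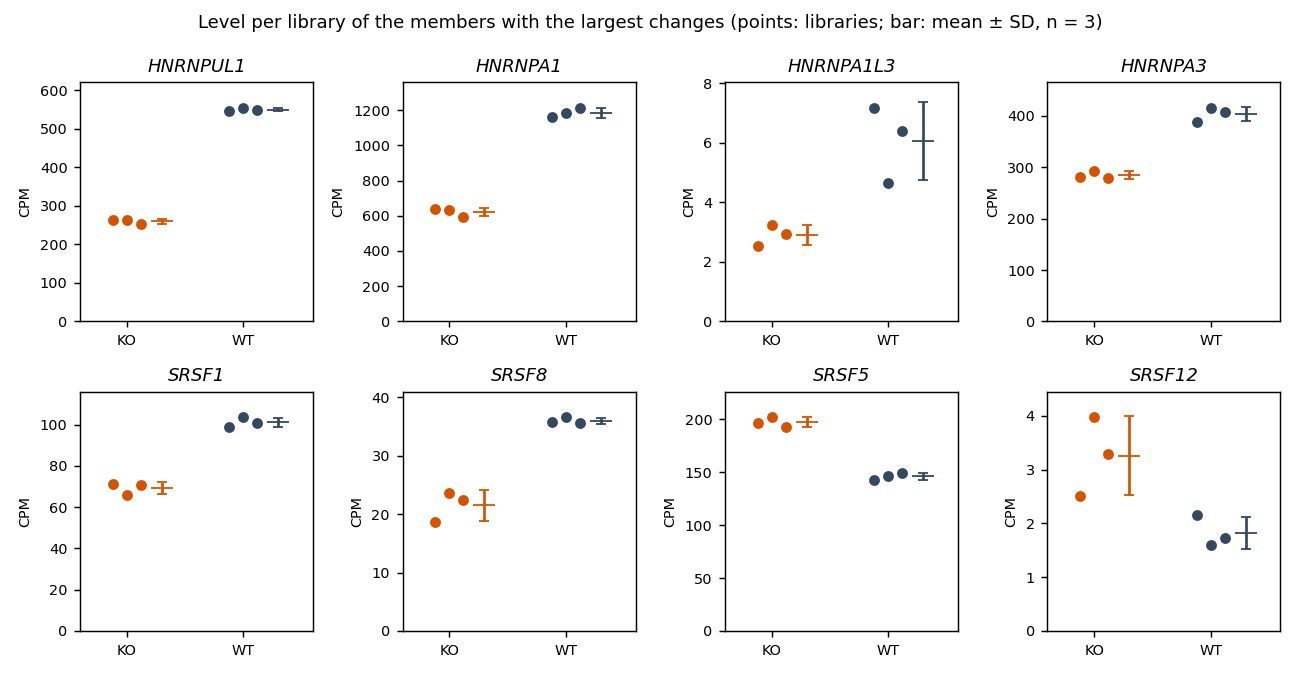
CPM per library, scaled with TMM factors, of the members with the largest changes past the threshold, with the mean and SD of 3 libraries beside the points; each vertical axis starts at 0. In the 6 genes that fell and the 2 that rose, no knockout library overlaps a wild-type library.

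SR protein genes went both ways. Of 12 tested, 7 fell and 2 rose, and SRSF4, SRSF9 and SRSF11 did not pass the threshold. The summed level of the SRSF genes was 1259, 1262 and 1250 CPM in the knockout libraries, against 1404, 1476 and 1433 CPM in the wild-type libraries, which is 12.6% lower. The 7 that fell had log2 fold changes between -0.73 and -0.25.

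SRSF5 (ENSG00000100650; chromosome 14, 69726900 to 69772005, plus strand) was the abundant member that rose. It was at 197, 202 and 193 CPM in the knockout libraries, against 143, 147 and 150 CPM in the wild-type libraries, so all knockout libraries lay above all wild-type libraries. The log2 fold change was 0.43 (SE 0.0437), with an adjusted p of 3.63e-10 in edgeR. Its share of all SRSF counts was 15.7% ± 0.295 in knockout cells and 10.2% ± 0.253 in wild-type cells (SD, n = 3 each). SRSF4, SRSF5 and SRSF6 are related proteins with paired recognition motifs. SRSF4 had 86.6 ± 1.05 CPM in knockout cells and 84.9 ± 0.982 CPM in wild-type cells, with a log2 fold change of 0.03 (SE 0.0484) and an adjusted p of 0.668 in edgeR. SRSF6 had 127 ± 3.53 CPM in knockout cells and 151 ± 7.15 CPM in wild-type cells, with a log2 fold change of -0.25 (SE 0.0468). Whether the changes of these paralogs differ from each other was not tested.

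SRSF12 was the other gene that rose, from a low level: 2.51, 3.97 and 3.29 CPM in the knockout libraries, against 2.163, 1.595 and 1.723 CPM in the wild-type libraries. Its log2 fold change was 0.83 (SE 0.227), with an adjusted p of 0.00235 in edgeR. It rests on 81, 162 and 134 counts in knockout libraries and 82, 43 and 69 counts in wild-type libraries. Its abundant paralog SRSF10, a regulator that represses splicing when it loses its phosphates in heat shock, fell, with 123 ± 3.43 CPM in knockout cells and 159 ± 2.26 CPM in wild-type cells (SD, n = 3 each). The log2 fold change of SRSF10 was -0.37 (SE 0.0448).

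SRSF8 (ENSG00000263465), a retrocopy related to SRSF2, had the largest fall of the family. It was at 18.6, 23.7 and 22.5 CPM in the knockout libraries, against 35.7, 36.6 and 35.7 CPM in the wild-type libraries. The groups lay apart. As a close copy, it may share reads with SRSF2, and its level is uncertain. SRSF8 had a log2 fold change of -0.73 (SE 0.0791), with an adjusted p of 1.29e-09 in edgeR. SRSF2 (SC35), a speckle protein, had a log2 fold change of -0.30 (SE 0.0447). In the annotation 36.7% of its exonic bases overlap MFSD11 on the opposite strand. MFSD11 had 30.2 ± 0.808 CPM in knockout cells and 26.9 ± 0.648 CPM in wild-type cells (SD, n = 3 each), and the sources used here do not say whether reads were counted by strand, which leaves the SRSF2 level uncertain.

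SRSF1 (ENSG00000136450; chromosome 17, 58003360 to 58007346, minus strand) is the prototype SR protein, whose loss has been linked to R-loops in chicken cells. It was at 71.3, 65.7 and 70.6 CPM in the knockout libraries, against 98.9, 104 and 101 CPM in the wild-type libraries, again without overlap. SRSF1 had a log2 fold change of -0.55 (SE 0.0506), with an adjusted p of 4.63e-11 in edgeR. In the annotation 56.6% of its exonic bases are shared with AC015813.2 on the same strand, which was at 0 counts, so its count may be incomplete. Its paralog SRSF9 was at 88.0, 85.2 and 71.2 CPM in the knockout libraries, against 83.8, 86.4 and 82.0 CPM in the wild-type libraries. The third knockout library was the lowest of the 6, and without it the log2 fold change of SRSF9 was 0.05, against -0.05 (SE 0.0596) with it. SRSF9 did not pass the threshold in either case, and 46.2% of its exonic bases overlap GATC on the opposite strand.

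SRSF3, a small SR protein that also adapts mRNA for export and partners with the nuclear N6-methyladenosine reader YTHDC1 in published work, was at 161, 164 and 168 CPM in the knockout libraries. It was at 230, 244 and 225 CPM in the wild-type libraries. The groups lay apart, with a log2 fold change of -0.50 (SE 0.0441) and an adjusted p of 1.29e-11 in edgeR. SRSF7, another export adaptor, had a log2 fold change of -0.35 (SE 0.0510). SRSF11 had 167 ± 1.36 CPM in knockout cells and 169 ± 5.74 CPM in wild-type cells (SD, n = 3 each). Its log2 fold change was -0.02 (SE 0.0439).

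Per kilobase of all annotated exons, SRSF2 stood first among SR genes in both groups, with 41.7 CPM in knockout cells and 51.2 in wild-type cells. SRSF5 stood next in knockout cells with 36.8 CPM per kilobase, whereas in wild-type cells, at 27.3, it stood below SRSF6 (32.9), SRSF3 (32.7), SRSF1 (30.2) and SRSF7 (28.9). In wild-type cells the gaps between SRSF6 and SRSF3, between SRSF1 and SRSF7 and between SRSF7 and SRSF5 were smaller than the larger SD between libraries of each pair, so the order within those pairs is not resolved. Within the hnRNP family, HNRNPUL1 had 39.7 CPM per kilobase in knockout cells and 84.1 in wild-type cells, and its share of hnRNP counts was 4.59% ± 0.0288 in knockout cells and 7.47% ± 0.0967 in wild-type cells (SD, n = 3 each). HNRNPU, HNRNPK and HNRNPC took larger shares in knockout than in wild-type cells although each of them fell. HNRNPK took 9.94% ± 0.219 of hnRNP counts in knockout cells and 8.49% ± 0.0993 in wild-type cells. Lengths are of all annotated exons of a gene, so levels per kilobase depend on the annotation. Of the exonic bases of SRSF1, 56.6% are shared with AC015813.2, and 36.7% of those of SRSF2 overlap MFSD11. The places of SRSF1 and SRSF2 in the order per length are therefore uncertain.

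**Figure D3:**
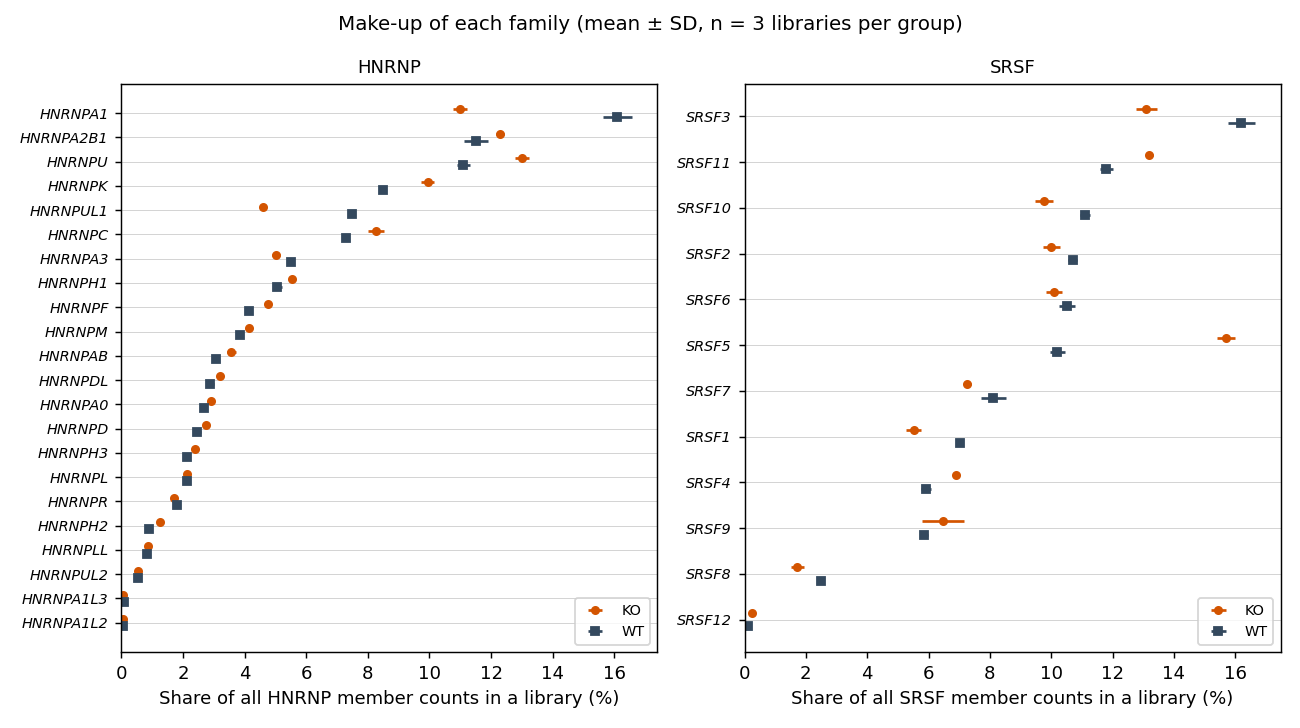
Share of each member in the counts of its family, in percent, as mean and SD of 3 libraries per group. HNRNPA1 and HNRNPUL1 take smaller shares in knockout than in wild-type cells, and SRSF5 takes 15.7% in knockout cells against 10.2% in wild-type cells.

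A feature that the choice of genes did not use is the annotated transcript structure. Many SR protein genes limit their own level by including an exon with a premature stop, which sends the mRNA to nonsense-mediated decay (NMD). In GENCODE 29 all 12 SRSF genes and 13 of the 22 HNRNP genes tested (59.1%) have a transcript marked as an NMD target, against 41.7% of the 13927 protein-coding genes tested. SRSF7 has 6 such transcripts and SRSF5 has 1. Gene-level counts add productive and NMD transcripts together, so they do not show which of these changed.

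Several members start close to a gene on the other strand. For 9 tested members a protein-coding gene began within 1000 bases on the opposite strand, and in 5 of these pairs both genes fell, which is 55.6% of so few pairs. Over all 1090 such pairs of protein-coding genes tested, both fell in 14.2%. These shares are not like for like, because 27 of the 34 members tested fell, which by itself raises the share of their pairs. Whether neighbours changed together was not tested. CBX5, which encodes heterochromatin protein HP1 alpha and starts 60 bases from HNRNPA1, had 158 ± 13.1 CPM in knockout cells and 415 ± 12.1 CPM in wild-type cells (SD, n = 3 each). Its log2 fold change was -1.39 (SE 0.0484), with an adjusted p of 2.74e-22 in edgeR, beside -0.93 for HNRNPA1. CBX3, which encodes HP1 gamma and starts 367 bases from HNRNPA2B1, had a log2 fold change of -0.18 (SE 0.0427), beside -0.28 for HNRNPA2B1. GEMIN6 fell beside SRSF7, ENOPH1 beside HNRNPDL and RMI1 beside HNRNPK, with log2 fold changes of -0.35, -0.21 and -0.39. In 1 of the 9 pairs (11.1%) the genes moved apart, against 14.4% of all pairs: TTC9C, which starts 597 bases from HNRNPUL2, rose by 0.37 on the log2 scale (SE 0.0893) while HNRNPUL2 fell. In the other pairs the member was not called. LRRC40 fell beside SRSF11, with a log2 fold change of -0.31, GLA rose by 0.30 on the log2 scale beside HNRNPH2, and DYNLL1, beside SRSF9, was not called either (log2 fold change 0.11).

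**Figure D4:**
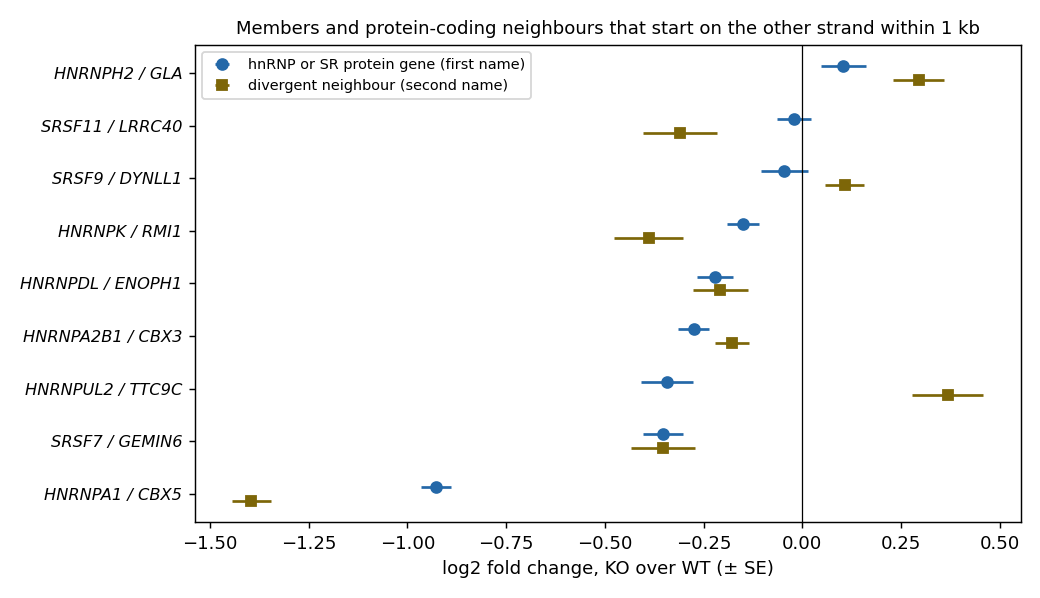
Log2 fold change, knockout over wild type, with bars of 1 SE, of 9 members (circles) and of the protein-coding gene that starts on the other strand within 1000 bases (squares). HNRNPA1 and CBX5 lie farthest left, and HNRNPUL2 and TTC9C lie on opposite sides of 0.

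Genes that work with hnRNP and SR proteins were described by lists written from general knowledge. Among 10 hnRNP proteins with other symbols, 7 fell and 1 rose, where 26.3% of all genes tested were lower and 27.2% higher. Their median log2 fold change was -0.19, beside 0.00 over all genes tested. The gene that rose was PTBP3, a relative of the polypyrimidine-tract binding repressor PTBP1, with 473, 462 and 495 CPM in the knockout libraries, against 297, 296 and 301 CPM in the wild-type libraries (log2 fold change 0.68, SE 0.0407). PTBP2, the neuronal relative, was at 10.4, 9.51 and 8.89 CPM in the knockout libraries, against 21.0, 20.9 and 20.4 CPM in the wild-type libraries (log2 fold change -1.11, SE 0.0953). RBMX, or hnRNP G, had a log2 fold change of -0.33 (SE 0.0403).

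Of 19 SR-related proteins tested, 6 fell and 4 rose, with a median log2 fold change of 0.03. LUC7L3 rose by 0.32 on the log2 scale, while TRA2B and SCAF8 had log2 fold changes of -0.29 and -0.31. Of 9 kinases, importers and phosphatase partners of SR proteins, 3 fell and 3 rose. The shares called in this list and among SR-related proteins lie near those over all genes tested, 26.3% lower and 27.2% higher. PPP1R10 and the kinase CLK2 had log2 fold changes of -0.36 and -0.34, and the kinase CLK3 rose by 0.25. Of 6 genes tested for arginine methylation and import of hnRNP proteins, 4 fell: PRMT3, CARM1, PRMT1 and, chosen after its values were seen, PRMT5, with log2 fold changes of -0.61, -0.47, -0.32 and -0.20.

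Of 28 snRNP proteins, a list that also holds U2AF1 and U2AF2, 17 fell and 4 rose, with a median log2 fold change of -0.18. For this list and those below, the shares over all genes tested were 26.3% lower and 27.2% higher. PRPF8, the protein at the catalytic centre of the spliceosome, was at 241, 247 and 246 CPM in the knockout libraries, against 665, 656 and 677 CPM in the wild-type libraries, with no overlap. Its log2 fold change was -1.45 (SE 0.0399), with an adjusted p of 3.91e-25 in edgeR. SNRNP200 and U2AF2 had log2 fold changes of -0.66 and -0.46. U2AF1 was not called and rests on low counts, with means of 1.75 CPM in knockout cells and 1.62 CPM in wild-type cells, so its level is uncertain. Of 15 other splicing regulators tested, 8 fell and 3 rose: KHSRP, MBNL1 and KHDRBS1 had log2 fold changes of -0.78, -0.52 and -0.40. Among 15 NMD factors 2 fell and 5 rose, with a median log2 fold change of 0.07; SMG8 and SMG5 rose by 0.26 and 0.23, and RBM8A had a log2 fold change of -0.23.

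**Figure D5:**
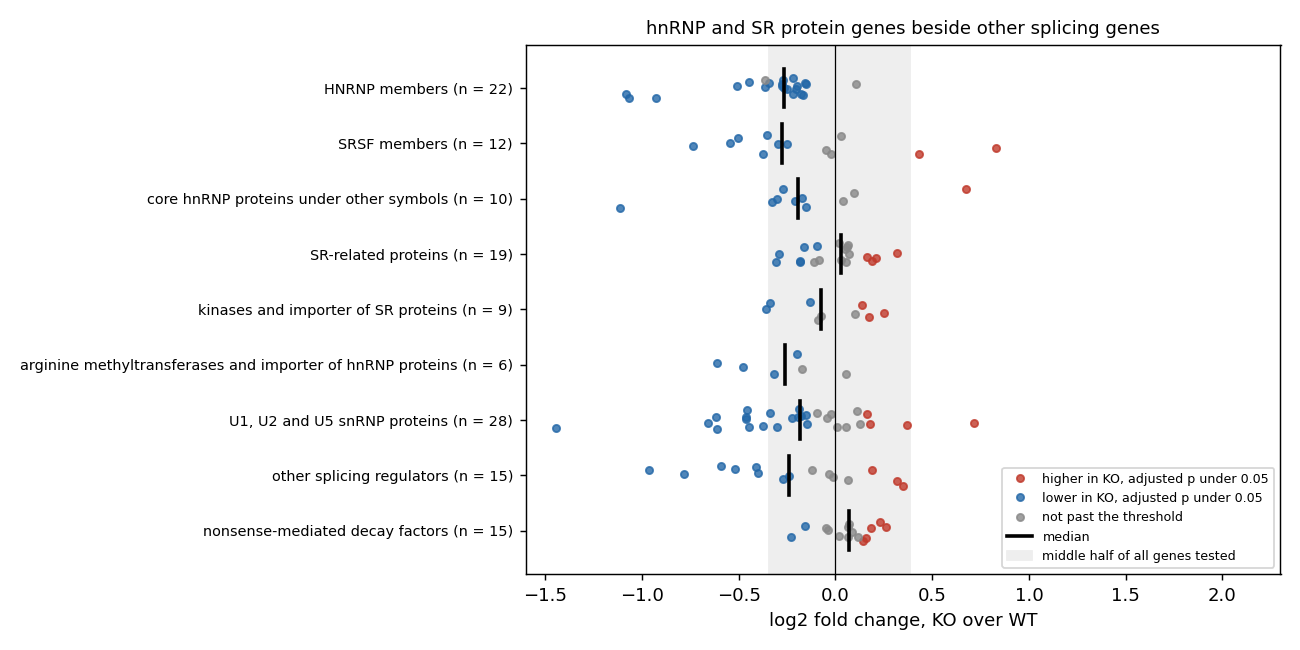
Log2 fold change, knockout over wild type, of each gene tested in the HNRNP and SRSF families and in 7 lists of related genes, with the median of each list as a bar and the range between the quartiles of all genes tested in grey. The HNRNP and SRSF medians, -0.27 each, lie left of 0, and the medians of SR-related proteins (0.03) and NMD factors (0.07) lie at or right of 0.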

How the data were processed

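Total RNA was made into libraries with an Illumina TruSeq stranded kit, per the labels' protocols. The authors deposited whole-number counts per Ensembl gene, 1 column per library. GRCh38 and edgeR 3.32.1, featureCounts 2.0.1, STAR 2.7.0d and Trim Galore 0.6.6 are listed, without their roles, per the submitters' processing notes. The sources used here give neither the annotation and strand setting nor how reads with several matches were handled.

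Counts were filtered with filterByExpr, which left 18505 of 60617 genes, scaled with TMM factors and fitted in edgeR 4.0.16 (R 4.3.3) with genotype as the only term. The quasi-likelihood test was two-sided, with Benjamini-Hochberg adjustment over all genes tested and 0.05 as the threshold. Biological variation between replicates was estimated at a common coefficient of 0.0617. SEs were taken from each fold change and its F statistic. Symbols came from a table of gene names, and types, coordinates and exons from GENCODE 29. Libraries of a group differed by more than sampling noise (chi-square per degree of freedom 4.38 to 6.46), so all 6 were kept.

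Members and lists were chosen with earlier results of these data known. Named genes are all members, with values per library for up to 6 rises and 6 falls, and up to 3 genes per list of splicing genes, taken by smallest adjusted p. Others were chosen after their values were seen. Alternatives were DESeq2 1.42.0, limma-voom (limma 3.58.1), other scalings, filters and thresholds, a replicate block and leaving out each library.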

Additional observations from a re-analysis of the deposited data

How the results depend on the processing

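The counts of 27 lower and 2 higher members were the same, and made of the same genes, with limma-voom, DESeq2, scaling by RLE factors or by library size alone, without a filter or with one of 1 CPM in 3 libraries, and at an adjusted p threshold of 0.01. Leaving out 1 library at a time gave 27 lower and 2 to 3 higher, the third being HNRNPH2 without wild-type replicate 2. Replicate numbers did not pair the libraries: deviations of same-numbered libraries correlated at -0.026, -0.0143 and 0.00785, and 2 of 6 libraries correlated best with their own number. With the replicate block 27 members were lower and 2 higher, and over all genes 4766 were lower and 4937 higher. When edgeR tested against a fold of 1.5, 3 members (HNRNPUL1, HNRNPA1L3 and HNRNPA1) were lower and 0 higher, or 4 and 1 at an unadjusted p of 0.05, beside 1012 genes lower and 1573 higher over all genes; most members changed by less than that. Scaling by library size only moved the median over all genes to 0.03, put the summed SRSF level in knockout cells at 1268 CPM (1257 CPM with TMM), and turned the log2 fold change of SRSF11 to 0.005. That of SRSF9 ran from -0.102 to 0.047 over the libraries left out. No adjusted p passed for either gene. Of the remaining settings for single members, 439 kept direction and call. The depth limits the genes near the filter, such as SRSF12 and HNRNPA1L3.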

Other observations

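Annotated pseudogenes of both families were counted separately. The 74 annotated pseudogenes of HNRNPA1 together held 8.13 CPM in knockout cells and 8.33 CPM in wild-type cells, which is 1.31% of the level of HNRNPA1 in knockout cells and 0.703% in wild-type cells. For every other parent gene the pseudogenes summed to under 1% of the parent in both groups.

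The Sm proteins, which form a ring on most spliceosomal snRNAs, were chosen after their values were seen. SNRPB, SNRPD1, SNRPD2, SNRPD3, SNRPE, SNRPF and SNRPG each fell, with log2 fold changes of -0.37, -0.30, -0.46, -0.45, -0.34, -0.46 and -0.18. In the SF3B complex, which recognises the branch site, SF3B5 and PHF5A rose by 0.72 and 0.37 on the log2 scale. SF3B6, SF3B3, SF3B1 and SF3B2 fell, with log2 fold changes of -0.62, -0.22, -0.19 and -0.15, and SF3B4 did not pass the threshold (0.11). MBNL2, a muscleblind regulator, rose by 0.35 where MBNL1 fell by 0.52.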
